A study of Mus musculus with 18 samples.

Results

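The interferon-stimulated genes are a set of 47 genes whose transcription is known to rise when a cell meets an interferon, and their response to monosodium urate (MSU) crystals was followed in 3 tissues of a mouse model of gout. The members were taken by name from a list of such genes, and all 47 were found among the 55359 genes listed in the count tables. MSU crystals, which deposit in the joints of people with gout, were injected under the skin at the right ankle of C57BL/6 mice aged 10 weeks, in a volume of 100 µl, and control mice received the same volume of phosphate-buffered saline (PBS). Ankle joint, dorsal root ganglia (DRG, the clusters of sensory neuron bodies beside the cord) and spinal cord were collected 8 h later and their RNA was sequenced in bulk. The 6 groups were MSU and PBS ankles, MSU and PBS ganglia, and MSU and PBS cords, with 3 libraries each, 18 in all. All mice were wild type, and the sample labels list the controls as untreated, whereas the treatment protocol and the column names give PBS, as taken here. The sources do not say from which side or level the ganglia and cord segments were taken.

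Interferons are secreted proteins that bind receptors on the cell surface and activate the Janus kinases JAK1, JAK2 and TYK2. The kinases phosphorylate transcription factors of the STAT family, among them STAT2. These enter the nucleus and bind either the interferon-stimulated response element (ISRE), as the complex of STAT2 with IRF9 does, or, in response to interferon gamma, the gamma-activated site (GAS). The proteins made from the target genes sense foreign nucleic acids, block viral translation and replication, attract lymphocytes and, in several cases, amplify or dampen interferon signalling itself.

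Library totals ran from 11632950 to 38812815 counts. Levels are given in CPM, counts scaled to the normalized library size, and 3 counts corresponded to 0.0727 to 0.282 CPM. The labelled tissues carried their own markers: the lubricin gene Prg4 was at 4806 CPM or more in ankles, the nociceptor sodium channel Scn10a at 932 CPM or more in ganglia, and the glycine transporter Slc6a5 at 427 CPM or more in cords and at 0 counts in ankles. One ganglion library stood apart. DRG MSU 1 held 2578 CPM of the skeletal muscle actin Acta1, against 281 and 264 CPM in the other MSU ganglia and 46.98, 29.3 and 5.62 CPM in PBS ganglia, and it also had the highest summed neutrophil markers of the ganglia (734 CPM). The counts of called genes in ganglia are therefore also given without it, a fit that was added after seeing the data for the lists other than the members. Cord MSU 3 and cord PBS 3 held Scn10a at 8.44 and 4.34 CPM, against 0.355 CPM or less in the other cords.

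The promoters of the members are shown first, because the response elements named above are visible in them. RefSeq promoter windows (mouse build GRCm38.p6, 250 bases before to 50 after an annotated start) were matched for 37 of the 47 members, in 44 windows. The core of the ISRE was searched as GAAA, 2 bases of any kind and GAAA again, and the core of the GAS as TTCNNNGAA, on both strands. An ISRE core was present in 23 of the 37 members (62.2%), against 3.99% of the 27025 genes with a window. A GAS core was present in 10 of 37 (27.0%), against 9.55% of all genes. The 2 motifs overlapped in Bst2. Such a match describes letters in a window and not a bound site. The 6 windows below belong to members on which the results turn, chosen to show cores on either side of a start and members of several role groups. They are Isg15 (chr4:156200769-156201068, minus strand) with 3 overlapping ISRE cores, Ifit1 (chr19:34640639-34640938, plus strand) with 2, Cxcl10 (chr5:92348840-92349139, minus strand) with 1, Gbp2 (chr3:142620413-142620712, plus strand) with 1, Irf1 (chr11:53769764-53770063, plus strand) with 1 GAS core and Ifi205 (chr1:174031706-174032005, minus strand) with 2 ISRE cores. They are written 5′ to 3′ on the strand of the gene, in lower case with the ISRE core (in Irf1, the GAS core) in capitals.
Isg15: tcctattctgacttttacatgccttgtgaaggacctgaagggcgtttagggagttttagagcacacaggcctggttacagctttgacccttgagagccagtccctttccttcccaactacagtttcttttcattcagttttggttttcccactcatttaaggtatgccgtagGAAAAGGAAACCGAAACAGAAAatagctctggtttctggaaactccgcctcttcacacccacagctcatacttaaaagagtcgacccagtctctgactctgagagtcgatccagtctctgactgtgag
Ifit1: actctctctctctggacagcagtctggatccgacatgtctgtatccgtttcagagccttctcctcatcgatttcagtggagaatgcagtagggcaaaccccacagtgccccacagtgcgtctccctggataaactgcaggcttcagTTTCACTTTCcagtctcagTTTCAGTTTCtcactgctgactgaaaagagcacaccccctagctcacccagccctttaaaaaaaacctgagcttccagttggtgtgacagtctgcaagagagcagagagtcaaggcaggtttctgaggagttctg
Cxcl10: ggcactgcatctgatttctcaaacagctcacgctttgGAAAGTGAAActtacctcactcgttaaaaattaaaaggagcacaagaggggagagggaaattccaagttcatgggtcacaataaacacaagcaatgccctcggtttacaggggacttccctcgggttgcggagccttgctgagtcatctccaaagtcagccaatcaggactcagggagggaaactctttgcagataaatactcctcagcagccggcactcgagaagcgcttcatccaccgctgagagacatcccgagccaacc
Gbp2: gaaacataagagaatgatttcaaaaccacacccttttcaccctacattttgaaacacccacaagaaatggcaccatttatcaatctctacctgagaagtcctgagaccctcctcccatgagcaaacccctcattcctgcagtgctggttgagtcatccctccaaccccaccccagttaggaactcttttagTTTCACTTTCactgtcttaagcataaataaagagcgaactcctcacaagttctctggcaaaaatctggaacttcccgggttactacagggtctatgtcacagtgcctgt
Irf1: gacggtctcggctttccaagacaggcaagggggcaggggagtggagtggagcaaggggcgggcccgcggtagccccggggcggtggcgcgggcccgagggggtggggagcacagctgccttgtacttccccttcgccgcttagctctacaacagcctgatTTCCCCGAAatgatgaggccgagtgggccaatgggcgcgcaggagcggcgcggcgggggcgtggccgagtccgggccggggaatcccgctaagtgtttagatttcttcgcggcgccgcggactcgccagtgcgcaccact
Ifi205: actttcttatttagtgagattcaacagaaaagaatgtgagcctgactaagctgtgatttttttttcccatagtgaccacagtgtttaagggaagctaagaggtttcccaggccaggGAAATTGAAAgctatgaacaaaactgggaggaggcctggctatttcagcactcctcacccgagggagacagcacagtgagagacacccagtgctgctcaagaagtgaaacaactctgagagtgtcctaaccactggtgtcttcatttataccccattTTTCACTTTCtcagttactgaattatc

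In Isg15 the 3 matches began at positions -78, -72 and -66 from the start (0 is the first transcribed base), and in Ifit1 at -104 and -85. The match in Cxcl10 began at -213 and that in Gbp2 at -59, and the GAS core of Irf1 at -90. Members with and without an ISRE core had similar median log2 fold changes in MSU against PBS ankles, 3.17 for 23 members and 2.98 for 14, and a median of 0.908 and 0.704 in ganglia. In cords the medians were 0.173 over the 22 tested members with a core and 0.301 over the 13 without. These medians are descriptions and were not tested against each other.

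**Figure D1:**
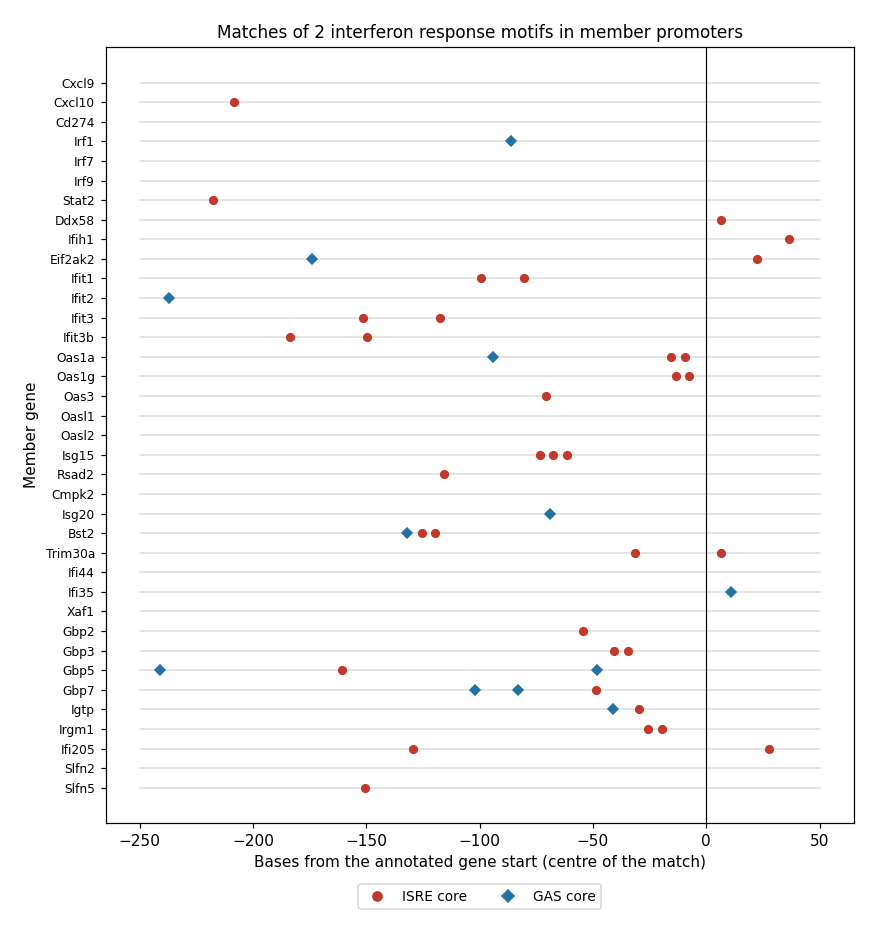
Positions of ISRE core and GAS core matches in the promoter windows of the 37 matched members. The x axis is the distance in bases of the centre of the match from the annotated start, each row is a gene, and the windows of a gene with several starts are drawn on the same row. ISRE cores are seen in 23 genes, at -78, -72 and -66 (first base) in Isg15, and GAS cores in 10.

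In the ankle joint, near the site of the injection under the skin, every member rose. All 47 were called higher with MSU at an adjusted p under 0.05 (edgeR's quasi-likelihood test, with Benjamini-Hochberg adjustment over all tested genes, as for every adjusted p below), when 21.6% of the 17690 tested genes were called higher. Every MSU ankle also lay above every PBS ankle for all 47, as was the case for 27.7% of tested genes. The log2 fold changes ran from 1.18 for Irf1 (2.27-fold) to 4.62 for Cxcl9 (24.6-fold), with a median of 2.83 over the members and -0.02 over all tested genes. Summed over the 47 genes, the level was 4013, 6719 and 6864 CPM in MSU ankles, against 1189, 847 and 814 CPM in PBS ankles, or 5865 ± 1606 and 950 ± 208 CPM (mean ± SD, n = 3 each). In bulk tissue, more cells that express a gene and more RNA per cell cannot be told apart. Within the MSU ankles, MSU 1 was the lowest library for 45 of the 47 members, and within the PBS ankles PBS 1 was the highest for 39. The response was thus present in each MSU ankle but uneven in size. Leaving out any 1 library left 43 to 47 members called, and all 47 passed with a log2 fold change of at least 1 as well, when 8.5% of tested genes did. With the title replicate number as a block fewer members were called than in any of these runs, as given under the processing. edgeR, DESeq2 and limma-voom called 0 members lower, and 0 were lower at an unadjusted p under 0.05.

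Markers of infiltrating cells were read in the same ankles, when 21.6% of all tested genes were called higher and 21.7% lower. Of 18 neutrophil markers, 13 rose, and their summed level was 4494 to 6214 CPM in MSU ankles and 528 to 1802 CPM in PBS ankles. Of 17 monocyte and macrophage markers, 7 rose and Cx3cr1 fell, with sums of 2347 to 3007 CPM in MSU ankles and 2114 to 2531 CPM in PBS ankles. Of 14 T and NK cell markers, Klrb1c, Gzma and Gzmb rose and 11 were not called. The summed level of the 14 was 54.0 to 77.1 CPM in MSU ankles and 27.8 to 44.1 CPM in PBS ankles. The share of these markers called higher, 21.4%, was near the 21.6% of all tested ankle genes. None of these markers was at 0 counts in the ankle. The part of these cells in the members' response was not tested. PBS 2, the PBS ankle with the highest neutrophil sum (1802 CPM), had 847 CPM of summed members, less than the 1189 CPM of PBS 1, whose neutrophil sum was 528 CPM.

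In the ganglia, 31 of the 47 members rose, 0 fell and 16 were not called, when 16.7% of the 17008 tested genes were called higher and 18.7% lower. The median log2 fold change of the members was 0.864, against 0.02 over all tested genes. At an unadjusted p under 0.05 edgeR had 1 member lower, and DESeq2 and limma-voom called 0 lower. Without DRG MSU 1, which was the lowest of the MSU ganglia for 37 members, 38 were called higher and the median was 1.02. All 31 remained called, and the additional members were Irf7, Dhx58, Ifit1, Oasl2, Mx1, Ifi44 and Xaf1. Leaving out the lowest MSU library favours a higher count by construction. Leaving out either of the other MSU ganglia gave fewer than 31, as given under the processing. The summed level of the 47 members was 759.5, 976 and 999.7 CPM in MSU ganglia, against 631, 690.0 and 553 CPM in PBS ganglia, so that the groups did not overlap. Groups did not overlap for 34 members, 32 higher and 2 lower (Stat2 and Cmpk2), when 24.8% of tested genes had every MSU ganglion above and 25.5% below. With a single fit of all 18 libraries the count of members called higher was 20, without Cxcl9, Cxcl10, Ddx58, Ifit3, Ifit3b, Oas1a, Oas1g, Usp18, Rtp4, Gbp7 and Igtp (adjusted p = 0.0506 to 0.368), and 15 members passed with a log2 fold change of at least 1 as well, when 4.86% of tested genes did.

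The monocyte and macrophage markers rose in 9 of 17 cases in the ganglia and Cx3cr1 fell, with sums of 383 to 448 CPM in MSU ganglia and 158 to 264 CPM in PBS ganglia. Beside these and the following counts, 16.7% of all genes tested in ganglia were called higher and 18.7% lower. Neutrophil markers rose in 8 of 18 cases, with sums of 291 to 734 CPM in MSU ganglia and 159 to 271 CPM in PBS ganglia. T and NK cell markers summed to 4.26 to 9.01 CPM in MSU ganglia and 3.41 to 4.73 CPM in PBS ganglia, and 10 of these 14 had too few counts to be tested. Plasmacytoid dendritic cell markers rose in 2 of 5 tested cases (Bst2, which is also a member, and Cox6a2), with sums of 76.4 to 129 CPM in MSU ganglia and 45.9 to 54.9 CPM in PBS ganglia. Siglech, Tcf4 and Irf8 were not called. The log2 fold change of Cox6a2, 5.28, was 3.79 without DRG MSU 1, the library with the most Acta1. Endothelial markers fell in 4 of 9 cases and 1 rose, with sums of 132 to 151 CPM in MSU ganglia and 176 to 179 CPM in PBS ganglia. Of 7 astrocyte and satellite glia markers, 3 rose and 2 fell, with sums of 169 to 197 CPM in MSU ganglia and 326 to 331 CPM in PBS ganglia. The mean log2(CPM + 1) over the 7 went the other way, at 4.443 to 4.608 in MSU ganglia and 4.286 to 4.365 in PBS ganglia. Sensory neuron markers fell in 5 of 11 cases, with sums of 7543 to 8153 CPM in MSU ganglia and 9196 to 11280 CPM in PBS ganglia. Joint markers, Acta1 included, summed to 976 to 2958 CPM in MSU ganglia and 284 to 557 CPM in PBS ganglia, with 2 of 7 tested lower. Without DRG MSU 1, 7 monocyte and macrophage markers were higher and 0 lower, 7 neutrophil markers were higher and 2 lower, and 5 endothelial and 5 sensory neuron markers were lower. In the same fit 3 plasmacytoid dendritic cell markers were higher, with Tcf4 added, and 1 joint marker was higher (Prg4, adjusted p = 0.0476) and 2 lower. Astrocyte and satellite glia markers were again 3 higher and 2 lower. The part of these cells in the members' response was not tested. DRG MSU 1, with the highest neutrophil sum, had the lowest summed members of the MSU ganglia.

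In the spinal cord the members responded little. Of the 45 tested, 9 rose (Irf9, Stat2, Zbp1, Oas2, Oas3, Isg20, Irgm1, Ifi204 and Slfn2), 3 fell (Eif2ak2, Gbp3 and Iigp1) and 33 were not called, when 5.6% of the 17507 tested genes were called higher and 4.07% lower. Cxcl9 and Ifi205 had too few counts to be tested. The median log2 fold change was 0.217, against -0.01 over all tested genes. The summed level was 322, 409 and 334 CPM in MSU cords, against 311, 326 and 309 CPM in PBS cords, and cord MSU 2 was the highest MSU cord for 37 of the 47 members. Leaving out any 1 library left 4 (without cord PBS 1) to 8 members higher, with 6 without PBS 2 or PBS 3. It left 0 (without PBS 2, PBS 3 or MSU 1), 1 (without PBS 1 or MSU 2) or 2 (without MSU 3) members lower, and a single fit of all 18 libraries called 6 higher and 0 lower. The calls of Zbp1, Isg20, Irgm1, Eif2ak2, Gbp3 and Iigp1 were lost in it (adjusted p = 0.0757 to 0.295). With a log2 fold change of at least 1 as well, 5 members were higher, when 2.3% of tested genes were. Every MSU cord lay above every PBS cord for 14 of the 47 members and below for 5, as was the case for 13.7 and 14.1% of tested genes.

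Monocyte and macrophage markers rose in 9 of 17 cases in the cord and Cx3cr1 fell, with sums of 358 to 544 CPM in MSU cords and 242 to 305 CPM in PBS cords. Beside these and the following counts, 5.6% of all genes tested in the cord were called higher and 4.07% lower. Neutrophil markers rose in 7 of 17 tested cases, with sums of 128 to 297 CPM in MSU cords and 90.02 to 109 CPM in PBS cords. Endothelial markers fell in 5 of 9 cases, with sums of 114 to 144 CPM in MSU cords and 208 to 299 CPM in PBS cords. Microglial markers fell in 4 of 7 cases, with sums of 113 to 138 CPM in MSU cords and 161 to 170.2 CPM in PBS cords. The part of these changes in the members' response was not tested. Cord MSU 2, the highest for most members, also had the highest neutrophil sum (297 CPM) and monocyte and macrophage sum (544 CPM).

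**Figure D2:**
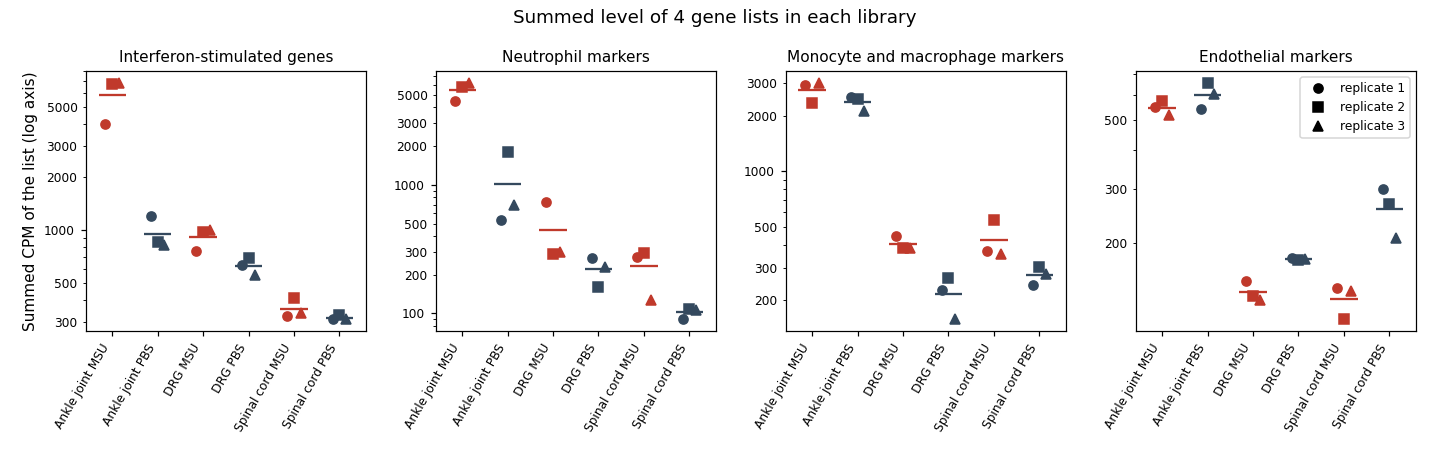
Summed CPM (log axis) of the 47 interferon-stimulated genes and of 3 marker lists in each library, with a line at the mean of each group of 3 and a symbol for each replicate number. The MSU ankles sit between 4013 and 6864 CPM for the members, all above the PBS ankles, and the MSU and PBS cords lie close together.

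**Figure D3:**
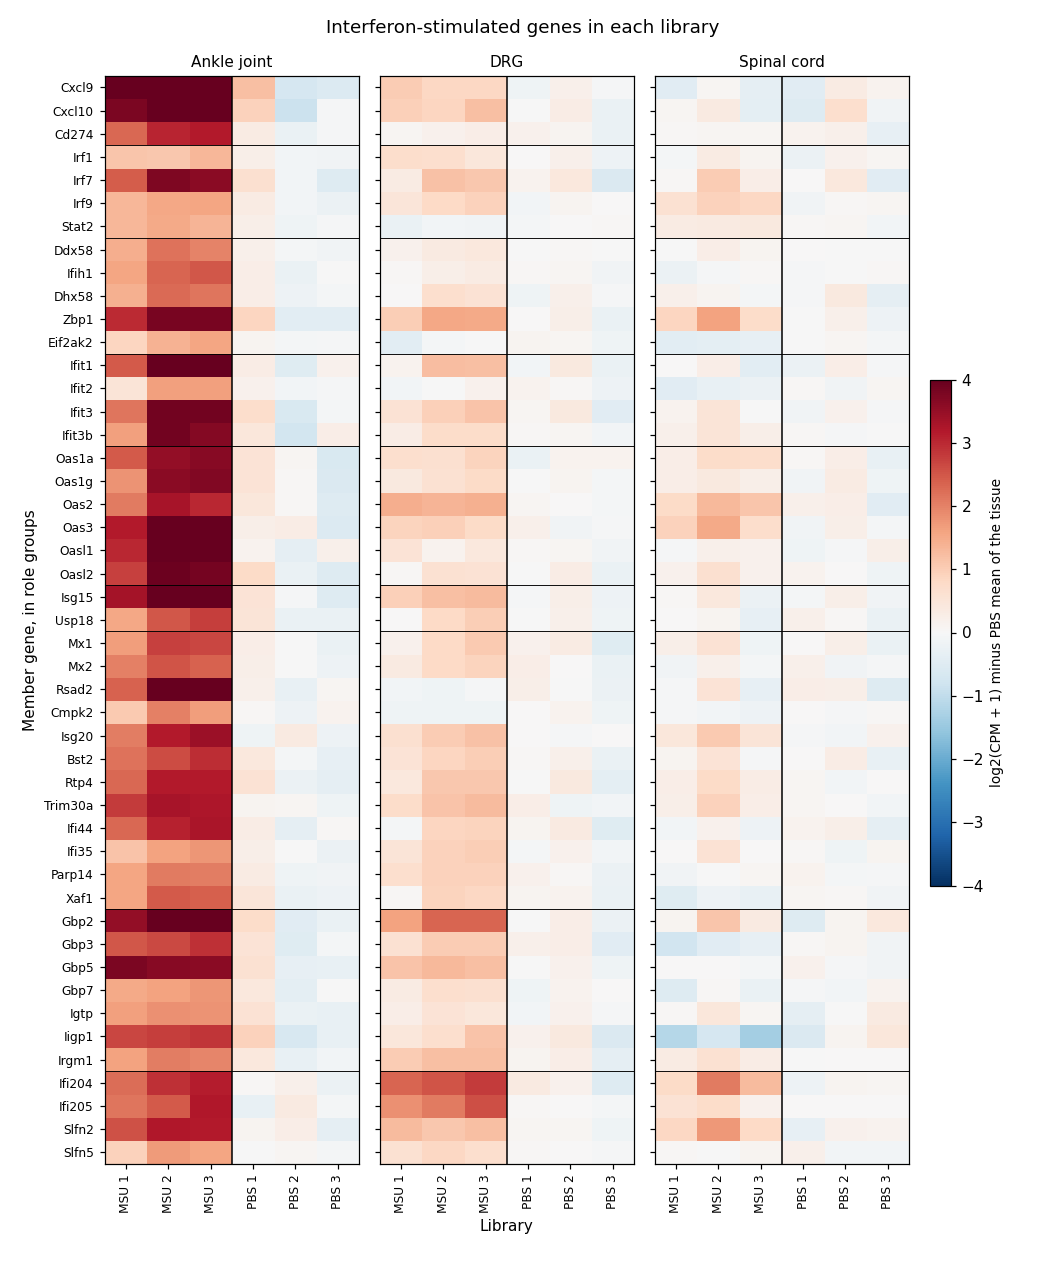
Level of each member in each library, as log2(CPM + 1) minus the mean of the PBS libraries of the same tissue, with rows in role groups and the MSU libraries to the left of the line. All 47 rows are higher in the MSU ankles, 31 were called higher in ganglia and 9 in cords, and ankle MSU 1 is paler than MSU 2 and MSU 3 in most rows.

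Of the 21 interferon genes themselves, none had enough counts to be tested in any tissue. Over all 21, there were 17 counts in MSU ankles and 25 in PBS ankles, 0 in MSU ganglia and 3 in PBS ganglia, and 6 in MSU cords and 1 in PBS cords. Ifnb1, which encodes interferon beta, had 5 counts over the MSU ankles and 0 over the PBS ankles. At this depth a difference in ligand transcripts was not detectable.

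The receptor genes rose in the ankle, where all 6 were called higher. Il10rb, a subunit of the interferon lambda receptor shared with interleukin-10, changed by 1.37 ± 0.11 on the log2 scale (adjusted p = 3.1e-05) and Ifnar2, a subunit of the type I receptor, 1.36 ± 0.13 (adjusted p = 7.49e-05). In ganglia 2 of the 6 rose. Ifngr1, the ligand-binding subunit of the interferon gamma receptor, was at 47.96, 53.3 and 52.98 CPM in MSU ganglia, against 30.4, 32.3 and 30.4 CPM in PBS ganglia (log2 fold change 0.73, SE 0.08, adjusted p = 0.000176). Ifnar2 was the other, at 0.39 (adjusted p = 0.039). Without DRG MSU 1 these counts were 2 higher and 1 lower (Ifngr2). In the cord edgeR called 0 of the 6, and 1 had an unadjusted p under 0.05.

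Of the 3 Janus kinase genes, Jak1 (0.73, adjusted p = 0.000234) and Jak2 (1.36, adjusted p = 1.49e-05) rose in the ankle and Tyk2 was not called. In ganglia Jak2 rose (0.41, adjusted p = 0.00726) and Jak1 fell (-0.29, adjusted p = 0.0181). In the cord edgeR called 0 of the 3, with 0 at an unadjusted p under 0.05.

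Among 14 genes that sense microbial products or nucleic acid upstream of interferon, or relay such signals, 9 rose in the ankle, 5 in ganglia and 5 in the cord. The adaptor of Toll-like receptors Myd88 rose in all 3 tissues, with log2 fold changes of 1.66 in the ankle (adjusted p = 6.83e-06), 1.38 in ganglia (adjusted p = 0.00026) and 1.24 in the cord (adjusted p = 0.000191). Tlr7, a sensor of single-stranded RNA, also rose in each (0.64, 1.28 and 1.29, with adjusted p = 0.00445, 0.00329 and 0.00552). Tmem173, which encodes STING, rose in ankle (1.69, adjusted p = 1.15e-05) and cord (1.31, adjusted p = 0.0014). Irf3, which drives interferon beta transcription, rose in ganglia (0.37, adjusted p = 0.00993) and cord (0.53, adjusted p = 0.00617). The other rises were Tlr3, Tlr4, Cgas, Tbk1, Ikbke and Irf8 in the ankle, Tlr4 and Mavs in ganglia, and Irf5 in the cord. Mavs, the mitochondrial adaptor of RNA sensors, fell in the ankle (-0.48, adjusted p = 0.0196), and Tlr3, a sensor of double-stranded RNA, fell in the cord (-0.53, adjusted p = 0.0288). Without DRG MSU 1, 5 were again higher in ganglia and 1 lower (Ticam1).

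Of 7 tested genes that restrain interferon signalling, 6 rose in the ankle, 4 in ganglia and 1 in the cord, and Adar, an RNA editing enzyme, fell in ganglia (-0.47, adjusted p = 0.00116). Socs3, which encodes a cytokine-induced inhibitor of Janus kinases, was the 1 that rose in the cord, at 43.5, 52.7 and 55.6 CPM in MSU cords, against 3.53, 4.25 and 2.799 CPM in PBS cords (log2 fold change 3.84, SE 0.15, adjusted p = 4.58e-09). It also rose in ankles (3.57, adjusted p = 3.27e-05) and ganglia (3.21, adjusted p = 0.00378). The tyrosine phosphatase gene Ptpn2 rose in ankles (2.01, adjusted p = 6.83e-06) and ganglia (1.01, adjusted p = 0.00278). Socs1, Irf2, Adar and Samhd1 rose in ankles too, and Pias1 and Samhd1 in ganglia. The calls of Janus kinase and regulator genes in ganglia were the same without DRG MSU 1. The nuclease gene Trex1 was listed at 0 counts in every library, and all of its exon bases lie within Atrip in the GENCODE M21 annotation.

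**Figure D4:**
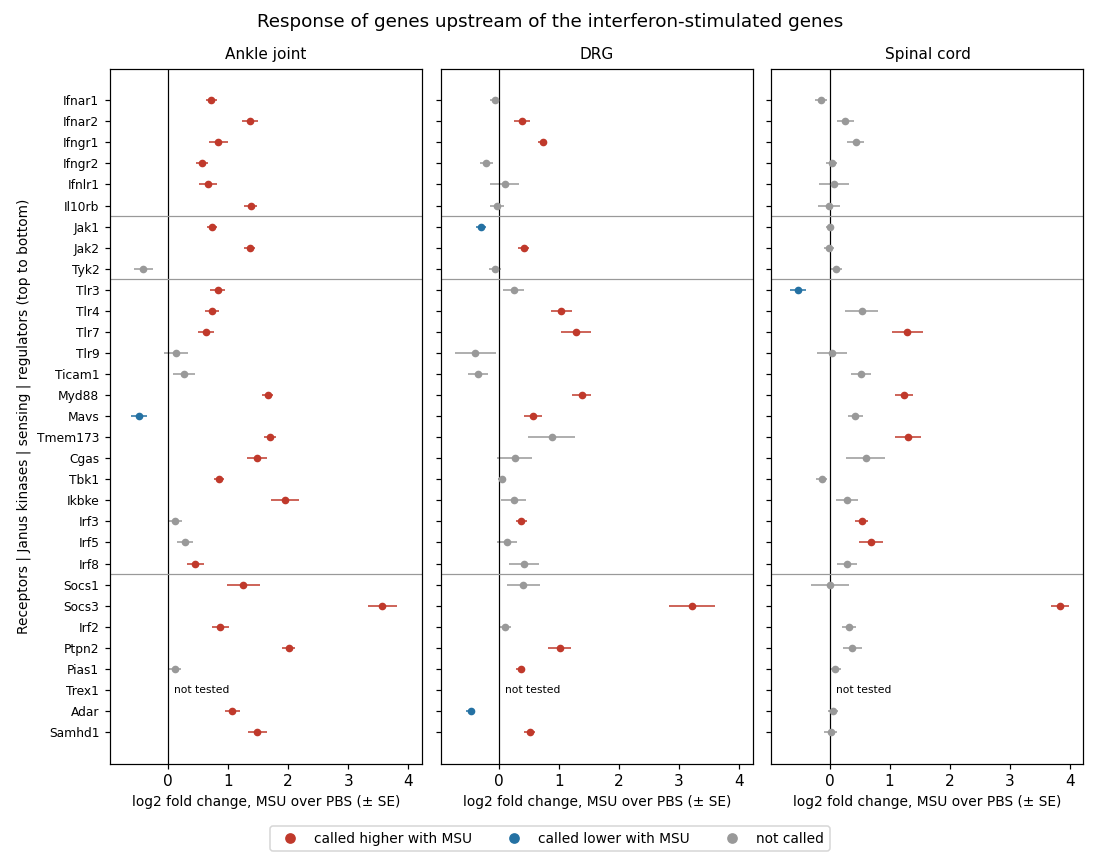
log2 fold change (MSU over PBS, ± SE) of receptor, Janus kinase, sensing and regulator genes in the 3 tissues, coloured by call. All 6 receptor genes were called higher in the ankle and none in the cord, and Socs3 was called higher in each tissue.

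Among the chemokine and surface ligand members, all 3 rose in ankles. Cxcl10, a chemokine that attracts activated T cells, was at 56.4, 70.1 and 99.5 CPM in MSU ankles, against 6.88, 1.296 and 3.03 CPM in PBS ankles (log2 fold change 4.27, SE 0.69, adjusted p = 0.00768). Cd274, which encodes the inhibitory ligand PD-L1, was at 64.7, 109 and 119.8 CPM in MSU ankles, against 15.7, 10.1 and 11.8 CPM in PBS ankles (log2 fold change 2.96, SE 0.28, adjusted p = 0.00033). Every MSU ankle was above every PBS ankle for both, and the lowest MSU ankle had 56.4 CPM of Cxcl10, against 6.88 CPM in the highest PBS ankle. In GENCODE M21, 5.91% of the exon bases of Cxcl10 and 14.1% of those of Cd274 lie opposite an antisense gene, and without a known strand setting such reads cannot be told apart. In ganglia both chemokines were low but the groups did not overlap. Cxcl9 was at 1.83, 1.51 and 1.47 CPM in MSU ganglia, against 0.251, 0.6202 and 0.355 CPM in PBS ganglia (log2 fold change 1.99, SE 0.37, adjusted p = 0.00253), and Cxcl10 at 3.66, 3.401 and 4.58 CPM in MSU ganglia, against 1.396, 1.95 and 1.005 CPM in PBS ganglia (log2 fold change 1.41, SE 0.27, adjusted p = 0.00267). Both calls were lost in a single fit of all 18 libraries. Cd274 overlapped between the groups in ganglia (adjusted p = 0.415). In cords Cxcl10 was at 0.741, 1.12 and 0.252 CPM in MSU cords, against 0.145, 1.61 and 0.516 CPM in PBS cords (adjusted p = 0.984) and Cd274 at 4.64, 4.82 and 4.83 CPM in MSU cords, against 5.03, 5.27 and 3.39 CPM in PBS cords (adjusted p = 0.906), and the groups overlapped for both. Cxcl9 was at 0.457 CPM or less in MSU cords and 0.732 CPM or less in PBS cords.

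The 4 transcription factors of the set had the lowest median log2 fold change of the role groups in ankles, 1.45. Stat2, part of the complex that binds the ISRE, was at 180.3, 209 and 187 CPM in MSU ankles, against 84.2, 64.04 and 69.05 CPM in PBS ankles (log2 fold change 1.41, SE 0.12, adjusted p = 4.64e-05). Irf1, an early activator of interferon targets, was at 70.9, 68.7 and 81.8 CPM in MSU ankles, against 37.8, 30.1 and 29.4 CPM in PBS ankles (log2 fold change 1.18, SE 0.13, adjusted p = 0.000133). Irf7, the factor that amplifies interferon alpha transcription, was at 142, 354 and 327 CPM in MSU ankles, against 40.4, 23.8 and 17.7 CPM in PBS ankles (log2 fold change 3.32, SE 0.53, adjusted p = 0.00721). Irf7 thus rose 9.98-fold and Irf1 2.27-fold, and for Irf7 ankle MSU 1 lay well below MSU 2 and MSU 3.

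In ganglia, Irf9, the DNA-binding partner of Stat2, was at 32.8, 41.1 and 44.6 CPM in MSU ganglia, against 21.6, 24.9 and 23.2 CPM in PBS ganglia (log2 fold change 0.77, SE 0.12, adjusted p = 0.000815). Irf1 was at 19.9, 19.5 and 16.5 CPM in MSU ganglia, against 11.9, 13.8 and 10.2 CPM in PBS ganglia (log2 fold change 0.63, SE 0.13, adjusted p = 0.00467). Irf7 was at 7.79, 14.8 and 13.8 CPM in MSU ganglia, against 6.73, 8.51 and 3.73 CPM in PBS ganglia, where MSU 1 lay within the PBS range (adjusted p = 0.0872). Irf7 was called without DRG MSU 1 (adjusted p = 0.0178). Stat2 was lower in each MSU ganglion than in each PBS ganglion, at 84.3, 94.5 and 92.5 CPM in MSU ganglia, against 97.3, 104 and 106 CPM in PBS ganglia, but the difference did not pass (adjusted p = 0.0837). In cords, Irf9 was at 22.1, 27.7 and 25.8 CPM in MSU cords, against 12.9, 14.7 and 15.02 CPM in PBS cords (log2 fold change 0.83, SE 0.12, adjusted p = 0.000531) and Stat2 at 38.4, 39.4 and 40.3 CPM in MSU cords, against 31.97, 32.1 and 28.2 CPM in PBS cords (log2 fold change 0.35, SE 0.09, adjusted p = 0.0225), both without overlap. The call of Stat2 in the cord was lost without MSU 3, PBS 1, PBS 2 or PBS 3 (adjusted p = 0.0501 to 0.0664). Irf7 overlapped between MSU and PBS cords, at 3.95, 8.68 and 4.78 CPM in MSU cords, against 3.87, 5.34 and 2.504 CPM in PBS cords (adjusted p = 0.361).

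All 5 nucleic acid sensors rose in ankles. Ddx58, which encodes the RNA sensor RIG-I, was at 111, 183 and 161 CPM in MSU ankles, against 45.9, 37.9 and 36.5 CPM in PBS ankles (log2 fold change 1.92, SE 0.19, adjusted p = 0.000161). Dhx58, its relative LGP2, was at 23.3, 43.1 and 39.5 CPM in MSU ankles, against 10.03, 6.91 and 7.702 CPM in PBS ankles (log2 fold change 2.09, SE 0.25, adjusted p = 0.000372). Ddx58 rose 3.77-fold and Dhx58 4.26-fold, with every MSU ankle above every PBS ankle. In ganglia, Zbp1, a sensor of Z-form nucleic acid that can trigger cell death, was at 4.61, 7.18 and 7.09 CPM in MSU ganglia, against 1.84, 2.35 and 1.36 CPM in PBS ganglia (log2 fold change 1.76, SE 0.25, adjusted p = 0.000638). Ddx58 was at 38.9, 44.2 and 46.5 CPM in MSU ganglia, against 34, 35.6 and 34.2 CPM in PBS ganglia (log2 fold change 0.32, SE 0.09, adjusted p = 0.0154), a small rise that was lost without MSU 2, MSU 3 or PBS 1 (adjusted p = 0.0554 to 0.0699). The remaining sensors were not called in ganglia. In cords, Zbp1 was at 1.73, 3.55 and 1.47 CPM in MSU cords, against 0.484, 0.732 and 0.295 CPM in PBS cords (log2 fold change 2.14, SE 0.45, adjusted p = 0.00813), so that this low gene was called in all 3 tissues, although not in the cord in a fit of all 18 libraries (adjusted p = 0.0757). Eif2ak2, which encodes the translation-blocking kinase PKR, fell in cords, at 12.5, 12.8 and 13.5 CPM in MSU cords, against 16.98, 18.3 and 16.4 CPM in PBS cords (log2 fold change -0.41, SE 0.11, adjusted p = 0.0341). That call was lost without MSU 1, MSU 2, PBS 1, PBS 2 or PBS 3 (adjusted p = 0.0618 to 0.138).

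The IFIT genes, whose products bind viral RNA, rose in ankles with a median log2 fold change of 3.50. Ifit1 was at 47.9, 167 and 179 CPM in MSU ankles, against 10.03, 5.42 and 9.08 CPM in PBS ankles (log2 fold change 4.001, SE 0.67, adjusted p = 0.00929). Ifit2 was at 28.9, 65.3 and 65.4 CPM in MSU ankles, against 22.7, 18.4 and 19.3 CPM in PBS ankles (log2 fold change 1.39, SE 0.32, adjusted p = 0.0144), and its call was lost without PBS 2 or PBS 3 (adjusted p = 0.0608 to 0.0614). The call of Ifit3 was lost without MSU 2, MSU 3, PBS 2 or PBS 3 (adjusted p = 0.0544 to 0.0706), and that of Ifit3b without MSU 2, MSU 3, PBS 1, PBS 2 or PBS 3 (adjusted p = 0.064 to 0.0831). In Ifit1, ankle MSU 1 lay far below MSU 2 and MSU 3 but above every PBS ankle. In ganglia, Ifit3 was at 20.3, 26.7 and 30.1 CPM in MSU ganglia, against 13.99, 17.7 and 9.34 CPM in PBS ganglia (log2 fold change 0.91, SE 0.25, adjusted p = 0.0328). The call was lost without MSU 2, MSU 3 or PBS 1 (adjusted p = 0.096 to 0.104). Ifit3b was at 6.503, 9.21 and 9.23 CPM in MSU ganglia, against 5.28, 5.49 and 4.61 CPM in PBS ganglia (log2 fold change 0.70, SE 0.17, adjusted p = 0.0111). The call was lost without MSU 2 or MSU 3 (adjusted p = 0.0551 to 0.0582). These neighbours share 31.7% (Ifit3) and 27.4% (Ifit3b) of their 100-base stretches, so the split of reads between them is uncertain. Ifit1 was at 25.9, 55.98 and 54.7 CPM in MSU ganglia, against 21.8, 30.8 and 19.1 CPM in PBS ganglia, with MSU 1 within the PBS range, and was not called (adjusted p = 0.125), but was called without DRG MSU 1 (adjusted p = 0.0054). In cords 0 of the 4 IFIT genes were called by edgeR, DESeq2 or limma-voom, and 1 was higher and 1 lower at an unadjusted p under 0.05. There, Ifit1 was at 5.04, 6.19 and 3.44 CPM in MSU cords, against 4.06, 6.15 and 4.79 CPM in PBS cords, Ifit2 at 14.02, 15.6 and 16.3 CPM in MSU cords, against 20.1, 17.4 and 20.7 CPM in PBS cords (adjusted p = 0.0863) and Ifit3b at 6.17, 7.92 and 6.29 CPM in MSU cords, against 5.47, 5.05 and 5.16 CPM in PBS cords (adjusted p = 0.217). In the cord, Ifit2 was lower and Ifit3b higher in every MSU library without passing the test.

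The OAS genes encode enzymes that activate RNase L upon binding double-stranded RNA, or their inactive relatives, and all 6 rose in ankles. Oas3 was at 49.6, 128 and 117 CPM in MSU ankles, against 5.72, 5.93 and 2.89 CPM in PBS ankles (log2 fold change 4.299, SE 0.51, adjusted p = 0.00227). Oasl1, a relative that dampens Irf7 translation, was at 36.9, 96.3 and 87.9 CPM in MSU ankles, against 4.21, 2.71 and 4.401 CPM in PBS ankles (log2 fold change 4.29, SE 0.47, adjusted p = 0.00112). Oas3 rose 19.7-fold and Oasl1 19.5-fold, among the steepest of the members. In ganglia, Oas2 was at 7.79, 7.23 and 7.62 CPM in MSU ganglia, against 2.37, 2.26 and 2.01 CPM in PBS ganglia (log2 fold change 1.76, SE 0.17, adjusted p = 8.39e-05) and Oas3 at 3.12, 3.26 and 2.76 CPM in MSU ganglia, against 1.53, 1.02 and 1.12 CPM in PBS ganglia (log2 fold change 1.28, SE 0.24, adjusted p = 0.00274), both without overlap. Oas1a and Oas1g also rose in ganglia, with 40.9 and 31.2% of their 100-base stretches shared with each other, while Oasl1 and Oasl2 were not called. Both calls were lost in the fit of all 18 libraries (adjusted p = 0.0774 and 0.0902), and that of Oas1g also without DRG MSU 3 (adjusted p = 0.062). In cords, Oas3 was at 2.02, 3.603 and 1.59 CPM in MSU cords, against 0.435, 0.878 and 0.516 CPM in PBS cords (log2 fold change 1.998, SE 0.41, adjusted p = 0.00739) and Oas2 at 3.26, 5.08 and 4.36 CPM in MSU cords, against 1.84, 1.98 and 0.8102 CPM in PBS cords (log2 fold change 1.43, SE 0.31, adjusted p = 0.00929). Oas2 and Oas3 therefore rose in each tissue.

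Isg15, a ubiquitin-like protein that is attached to other proteins or secreted, was at 59.1, 139 and 159.9 CPM in MSU ankles, against 7.8, 4.87 and 3.23 CPM in PBS ankles (log2 fold change 4.45, SE 0.57, adjusted p = 0.00354). Usp18, the protease that removes Isg15 and also restrains the type I receptor, was at 18.9, 36.4 and 45.1 CPM in MSU ankles, against 8.67, 4.63 and 4.61 CPM in PBS ankles (log2 fold change 2.45, SE 0.41, adjusted p = 0.00394). Isg15 rose 21.8-fold in ankles, the second highest fold among the members after Cxcl9. In ganglia, Isg15 was at 7.52, 9.21 and 9.61 CPM in MSU ganglia, against 3.32, 4.25 and 2.84 CPM in PBS ganglia (log2 fold change 1.34, SE 0.19, adjusted p = 0.000603) and Usp18 at 2.91, 5.76 and 6.67 CPM in MSU ganglia, against 2.82, 3.41 and 2.42 CPM in PBS ganglia (log2 fold change 0.84, SE 0.29, adjusted p = 0.0453). Isg15 groups did not overlap, whereas DRG MSU 1 lay within the PBS range of Usp18, whose call was lost without MSU 2, MSU 3, PBS 1, PBS 2 or PBS 3 (adjusted p = 0.0661 to 0.194). In cords the groups overlapped for both, with Isg15 at 3.26, 4.52 and 2.52 CPM in MSU cords, against 2.902, 3.88 and 2.73 CPM in PBS cords (adjusted p = 0.844) and Usp18 at 1.53, 1.73 and 1.01 CPM in MSU cords, against 1.94, 1.61 and 1.105 CPM in PBS cords (adjusted p = 0.833).

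Of 12 further antiviral effectors, all rose in ankles, 7 in ganglia and 1 in the cord. Trim30a, a regulator of Toll-like receptor signalling in mice, was at 189, 265 and 255 CPM in MSU ankles, against 28.5, 27.4 and 22.9 CPM in PBS ankles (log2 fold change 3.17, SE 0.15, adjusted p = 5.77e-06). Of the Mx GTPase genes, Mx1 was at 33.1, 70.2 and 66.4 CPM in MSU ankles, against 11.8, 9.54 and 7.91 CPM in PBS ankles (log2 fold change 2.52, SE 0.32, adjusted p = 0.001) and Mx2 at 20.9, 29.4 and 26.7 CPM in MSU ankles, against 5.26, 4.28 and 3.65 CPM in PBS ankles (log2 fold change 2.52, SE 0.20, adjusted p = 3.1e-05). The 3 genes were higher in every MSU ankle. In ganglia, Parp14, an ADP-ribosyltransferase, was at 33.1, 40.1 and 39.95 CPM in MSU ganglia, against 23.5, 21.1 and 17.4 CPM in PBS ganglia (log2 fold change 0.86, SE 0.12, adjusted p = 0.000595) and Isg20, an RNA exonuclease, at 5.96, 8.03 and 9.19 CPM in MSU ganglia, against 3.57, 3.32 and 3.55 CPM in PBS ganglia (log2 fold change 1.16, SE 0.19, adjusted p = 0.00122). Mx1 was at 1.02, 2.13 and 2.73 CPM in MSU ganglia, against 1.005, 1.24 and 0.296 CPM in PBS ganglia, with MSU 1 within the PBS range, and was not called (adjusted p = 0.0808), but was called without DRG MSU 1 (adjusted p = 0.0153). In cords, Isg20 was at 2.57, 4.31 and 2.73 CPM in MSU cords, against 1.5, 1.39 and 1.92 CPM in PBS cords (log2 fold change 1.00, SE 0.28, adjusted p = 0.0436). The call was lost without MSU 2, PBS 1, PBS 2 or PBS 3 (adjusted p = 0.0567 to 0.158). Trim30a was at 5.97, 10.1 and 6.13 CPM in MSU cords, against 5.27, 4.98 and 4.49 CPM in PBS cords, with every MSU cord above but the test not passed (adjusted p = 0.122), and Mx1 overlapped at 0.741, 1.17 and 0.294 CPM in MSU cords, against 0.484, 0.732 and 0.221 CPM in PBS cords (adjusted p = 0.595). Rsad2, which encodes the antiviral enzyme viperin, rose 14.7-fold in ankles (log2 fold change 3.88, SE 0.62, adjusted p = 0.00803), while in ganglia it was at 8.4, 8.03 and 8.84 CPM in MSU ganglia, against 11.1, 9.17 and 7.63 CPM in PBS ganglia (adjusted p = 0.487).

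The guanylate-binding proteins and immunity-related GTPases attack the vacuoles of intracellular microbes and are known as targets of interferon gamma. Gbp5, which promotes inflammasome assembly, was at 127, 117 and 114 CPM in MSU ankles, against 13.4, 6.56 and 6.74 CPM in PBS ankles (log2 fold change 3.72, SE 0.31, adjusted p = 0.00022). Gbp2 was at 264, 368 and 406 CPM in MSU ankles, against 37.8, 15.9 and 18.4 CPM in PBS ankles (log2 fold change 3.84, SE 0.42, adjusted p = 0.00139), and Irgm1, a regulator of the family, at 75.3, 102 and 95.6 CPM in MSU ankles, against 32.6, 19.5 and 22.1 CPM in PBS ankles (log2 fold change 1.87, SE 0.21, adjusted p = 0.000341). Unlike most members, Gbp5 was not lowest in ankle MSU 1. In ganglia 6 of the 7 rose. Gbp2 was at 34.9, 58.7 and 58.9 CPM in MSU ganglia, against 10.8, 13.1 and 9.05 CPM in PBS ganglia (log2 fold change 2.21, SE 0.25, adjusted p = 0.00143). Gbp5 was at 13.7, 15.3 and 14.2 CPM in MSU ganglia, against 5.58, 6.42 and 4.85 CPM in PBS ganglia (log2 fold change 1.36, SE 0.14, adjusted p = 0.000131), and Irgm1 at 18.8, 21.5 and 21.2 CPM in MSU ganglia, against 9.49, 10.6 and 6.56 CPM in PBS ganglia (log2 fold change 1.20, SE 0.16, adjusted p = 0.000497). The groups did not overlap for these 3 genes, nor for Iigp1, which did not pass (adjusted p = 0.0702).

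In cords the family was split. Irgm1 was at 17.5, 21.3 and 17.04 CPM in MSU cords, against 13.4, 13.7 and 13.8 CPM in PBS cords (log2 fold change 0.45, SE 0.12, adjusted p = 0.0318), and that call was lost without MSU 1, MSU 2, PBS 1, PBS 2 or PBS 3 (adjusted p = 0.053 to 0.104). Iigp1, which ruptures parasite vacuoles, fell and was at 1.78, 2.89 and 1.39 CPM in MSU cords, against 3.14, 5.64 and 7.51 CPM in PBS cords (log2 fold change -1.42, SE 0.35, adjusted p = 0.0277), and Gbp3 fell and was at 5.33, 6.902 and 7.47 CPM in MSU cords, against 10.01, 10.54 and 8.77 CPM in PBS cords (log2 fold change -0.57, SE 0.17, adjusted p = 0.0466). The groups did not overlap for either, but the call was lost for Iigp1 without MSU 1, MSU 3, PBS 2 or PBS 3 (adjusted p = 0.0761 to 0.112) and for Gbp3 without MSU 1, MSU 2, PBS 1, PBS 2 or PBS 3 (adjusted p = 0.059 to 0.201). Gbp2 overlapped at 8.49, 17.7 and 10.2 CPM in MSU cords, against 5.13, 8.35 and 10.7 CPM in PBS cords (adjusted p = 0.379). The remaining members of the family were not called. The summed endothelial markers were also lower in the same cords, as given above, and a link with the falls of Iigp1 and Gbp3 was not tested.

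The p200 genes encode proteins with DNA-binding HIN domains, and the Schlafen gene Slfn2 is known for keeping leukocytes quiescent in mice. In ganglia this group had the highest median log2 fold change of the role groups. Slfn2 was at 208, 326 and 323 CPM in MSU ankles, against 37.2, 42.1 and 26.6 CPM in PBS ankles (log2 fold change 3.01, SE 0.24, adjusted p = 0.000115) and Ifi204 at 189.8, 304 and 354 CPM in MSU ankles, against 40.8, 44.9 and 32.9 CPM in PBS ankles (log2 fold change 2.83, SE 0.25, adjusted p = 0.00019). Each MSU ankle was above each PBS ankle for both. In ganglia Ifi205 was at 3.18, 3.92 and 6.01 CPM in MSU ganglia, against 0.223, 0.177 and 0.118 CPM in PBS ganglia (log2 fold change 4.55, SE 0.37, adjusted p = 3.09e-05), a fold that rests on 14 PBS counts over the 3 libraries and depends on the prior count. Ifi204 was at 11.9, 13.7 and 16.6 CPM in MSU ganglia, against 2.29, 1.86 and 0.769 CPM in PBS ganglia (log2 fold change 3.04, SE 0.32, adjusted p = 0.000387) and Slfn2 at 11.04, 9.68 and 10.52 CPM in MSU ganglia, against 4.27, 4.34 and 3.49 CPM in PBS ganglia (log2 fold change 1.36, SE 0.15, adjusted p = 0.000194). Ifi204 and Ifi205 share 10.7 and 15% of their 100-base stretches with Ifi211, so that part of their counts cannot be placed. In cords, Ifi204 was at 2.96, 8.78 and 4.62 CPM in MSU cords, against 1.02, 1.54 and 1.47 CPM in PBS cords (log2 fold change 2.04, SE 0.40, adjusted p = 0.00959) and Slfn2 at 4.94, 10.1 and 4.83 CPM in MSU cords, against 1.69, 2.78 and 2.73 CPM in PBS cords (log2 fold change 1.48, SE 0.33, adjusted p = 0.0161), with MSU 2 highest for both, and each call was lost without cord PBS 1 (adjusted p = 0.0588 for Ifi204 and 0.0682 for Slfn2). Ifi205 had 26 counts over the MSU cords and 0 over the PBS cords, at least 6.51-fold higher against a floor of 3 counts over the group, and was not tested.

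**Figure D5:**
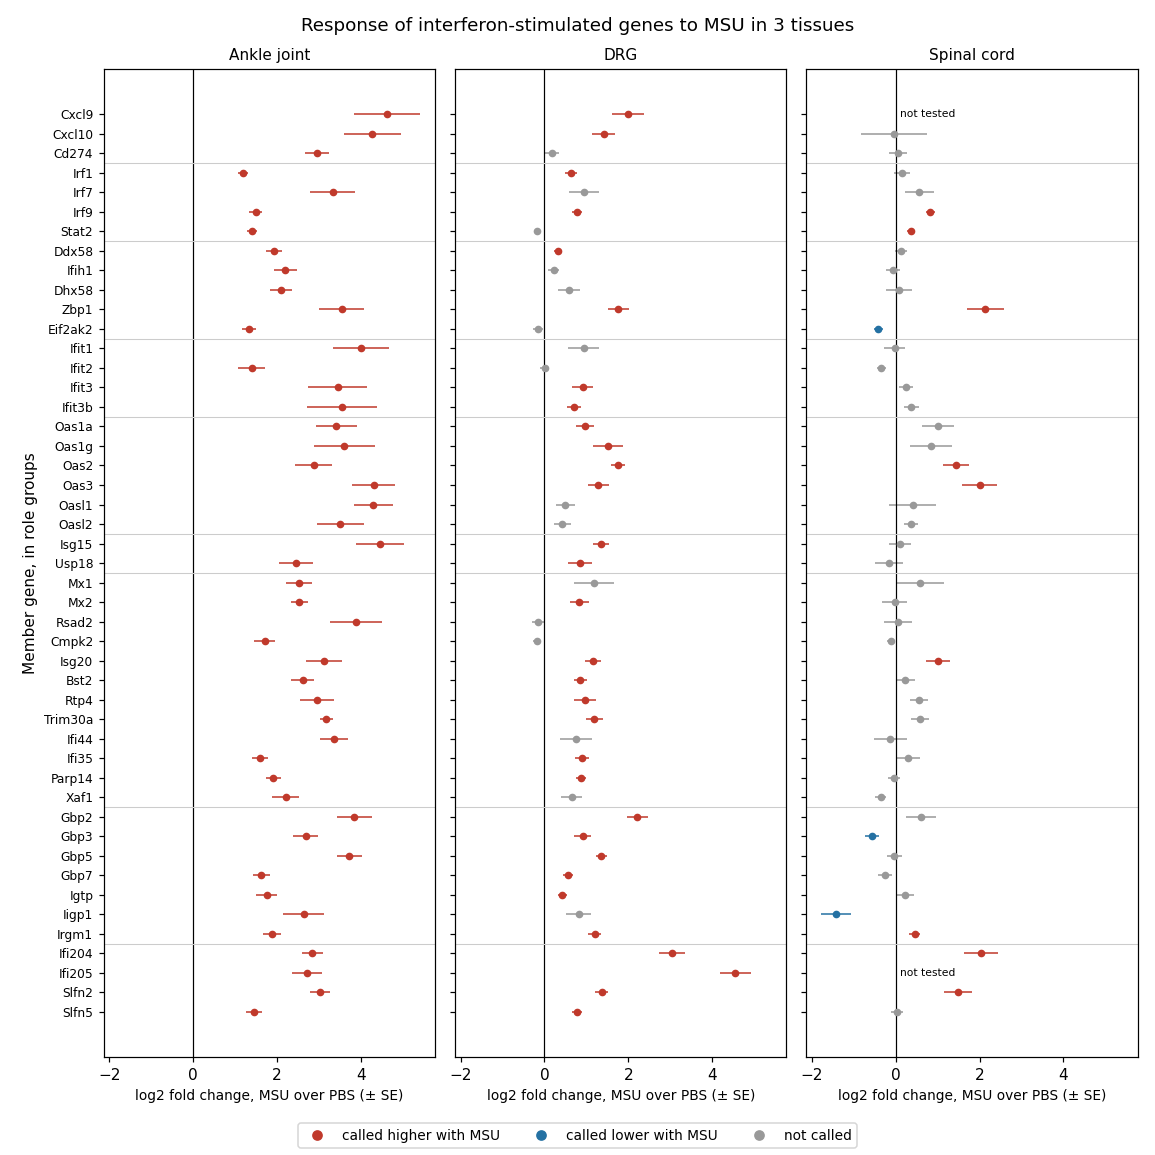
log2 fold change (MSU over PBS, ± SE from edgeR) of the 47 members by role group in the ankle joint, DRG and spinal cord, coloured by call. All 47 are called higher in the ankle, with a median of 2.83, against 31 in ganglia and 9 in the cord, where Eif2ak2, Gbp3 and Iigp1 are called lower.

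The members not yet described also rose in ankles. Ifih1, which encodes the RNA sensor MDA5, had 2.20 ± 0.27 in ankles on the log2 scale (adjusted p = 0.000926) and was not called in ganglia (0.22, adjusted p = 0.206). Rtp4, a chaperone of G protein-coupled receptors that also restrains viruses, rose in ankles (2.95, adjusted p = 0.00251) and ganglia (0.96, adjusted p = 0.0216). Its call in ganglia was lost without MSU 2, MSU 3 or PBS 1 (adjusted p = 0.0769 to 0.0863) and in the fit of all 18 libraries (adjusted p = 0.0506). The GTPase genes Gbp7 and Igtp had log2 fold changes of 1.62 and 1.75 in ankles (adjusted p = 0.000485 and 0.00119) and 0.57 and 0.43 in ganglia (adjusted p = 0.00488 and 0.0116). In ganglia both calls were lost in the fit of all 18 libraries (adjusted p = 0.0538 and 0.271), and that of Igtp without MSU 2 or PBS 1 (adjusted p = 0.0551 to 0.0604). Ifi35 rose in ankles (1.58, adjusted p = 0.000273) and ganglia (0.90, adjusted p = 0.00235), and so did Slfn5 (1.44 and 0.78, adjusted p = 0.000708 and 0.000955). In the cord these 6 genes did not pass the test. Part of the exon bases of Ifi35 (16.8%) and Slfn5 (8.84%) lies opposite an antisense gene, and Gbp7 and Rtp4 share exon bases with a predicted gene (11.3 and 13.9%), so those counts are uncertain.

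Read across tissues, 8 members rose in all 3 (Irf9, Zbp1, Oas2, Oas3, Isg20, Irgm1, Ifi204 and Slfn2). A further 23 rose in ankle and ganglia but were not called higher in the cord, and Stat2 rose in ankle and cord. The other 15 rose in the ankle and were not called higher in ganglia or cord. Over all tested genes, 21.6% were called higher in ankles, 16.7% in ganglia and 5.6% in cords, and the share with each pattern was not counted. The cord calls of Zbp1, Isg20, Irgm1, Ifi204 and Slfn2 were each lost in some alternative run, as given above. Of the 12 members called in the cord, 3 kept their call in every alternative, apart from the rule on a log2 fold change of at least 1. A call in one tissue and none in another does not show that the responses differ, so the difference in log2 fold change between tissues was tested over all 18 libraries. The 3 differences share libraries and are not independent of one another.

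The response was greater in the ankle than in ganglia for 38 of the 47 members and smaller for 0, when 14.3% of the 20757 genes in this test were called greater and 18.1% smaller. The median difference in log2 fold change, ankle minus ganglia, was 1.74, against -0.132 over all genes. Without DRG MSU 1, 34 members were called greater and 1 smaller. With DESeq2 1 member was called smaller and with limma-voom 0, and 1 had an unadjusted p under 0.05 in edgeR. The members with the smallest p-values were Stat2 (1.56, SE 0.14, adjusted p = 1.97e-07), Cd274 (2.75, SE 0.30, adjusted p = 2.22e-06) and Oasl1 (3.77, SE 0.44, adjusted p = 6.67e-06). Ifi204 and Ifi205 had lower estimates in the ankle than in ganglia, with differences of -0.21 (adjusted p = 0.802) and -1.88 (adjusted p = 0.0548).

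Against the cord, the ankle response was greater for 41 members and smaller for 0 (0 also at an unadjusted p under 0.05, with DESeq2 and with limma-voom), when 9.15% of genes were called greater and 17.6% smaller, with a median difference of 2.25 against -0.162. The smallest p-values belonged to Gbp5 (3.62, SE 0.30, adjusted p = 1.83e-07), Cd274 (2.77, SE 0.31, adjusted p = 4.47e-06) and Parp14 (1.82, SE 0.22, adjusted p = 1.05e-05). Irf9, Zbp1, Oas2, Mx1, Ifi204 and Ifi205 were not called. Of these, Irf9, Zbp1, Oas2 and Ifi204 are among the 8 that rose in each tissue.

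Ganglia and cord differed for 4 members. The response was greater in ganglia for Gbp5 (1.28, SE 0.30, adjusted p = 0.00907), Gbp3 (1.38, SE 0.36, adjusted p = 0.0186) and Parp14 (0.80, SE 0.23, adjusted p = 0.0247). It was smaller for Stat2 (-0.64, SE 0.14, adjusted p = 0.00445). Of all genes in this test, 3.11% were called greater and 10.4% smaller, and the median difference was 0.405 over the members and -0.0533 over all genes. With DESeq2, 7 members were called greater in ganglia, and leaving out 1 library gave 1 (without DRG MSU 3 or cord MSU 1) to 6 (without ankle PBS 1), with 5 without ankle PBS 2 and 4 without DRG MSU 1. The call of Gbp3 was lost without DRG MSU 3 or cord MSU 1 (adjusted p = 0.0516 and 0.0542), and that of Parp14 without DRG PBS 3, DRG MSU 2, DRG MSU 3, cord PBS 1, cord MSU 1 or cord MSU 2 (adjusted p = 0.0607 to 0.0784).

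Levels were also compared between genes per kilobase of exon (GENCODE M21 lengths), with each tissue scaled on its own. In MSU ankles the highest levels were those of Slfn2 (172 CPM per kilobase), Bst2 (167, the gene of the virion-tethering protein tetherin), Isg15 (158) and Gbp2 (138). In PBS ankles, Bst2 (27.1) and Slfn2 (21.2) were highest and Isg15 stood at 7.01 CPM per kilobase. Bst2 headed the MSU ganglia (21.3) and Stat2 the PBS ganglia (17.3). In cords, Cmpk2, a nucleotide kinase of the mitochondria, was highest in both groups (9.34 in MSU cords and 10.1 in PBS cords), although it was among the lowest members in MSU ankles (9.48).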

How the data were processed

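The data are the raw read counts per Ensembl gene that the authors deposited, 1 table per tissue, all of them whole numbers whose totals differ between libraries. HISAT2, HTSeq 0.11.3, DESeq2 and build mm39 are named, without a role, per the submitters' processing notes, and the annotation and strand setting are not given in the sources used here. Symbols and exon lengths came from GENCODE M21 and matched 52083 of 55359 gene IDs. The older symbol Mb21d1 was matched under its current symbol Cgas, and Mnda had no match. 1 signalling gene of the pathway lists is not reported here.

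The members and all gene lists were chosen with earlier results of these data known. Counts were filtered with filterByExpr (minimum count 10, minimum total 15), scaled by TMM and tested in each tissue, 3 MSU against 3 PBS libraries, with edgeR 4.0.16 in R 4.3.3 (glmQLFTest with robust dispersions, Benjamini-Hochberg adjusted p, threshold 0.05). Differences between tissues were interaction contrasts in edgeR over all 18 libraries. CPM are counts scaled by the TMM-adjusted library total, and errors are SD over 3 libraries or SE of the log2 fold change. The steps were tested on simulated data. Alternatives were RLE and upper quartile factors, other count filters, DESeq2 1.42.0, limma-voom (limma 3.58.1), leaving out each library, replicate blocks, a fit of all 18 libraries and a log2 fold change of at least 1.

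Values per library are given for the 2 members of each role group with the smallest p-values in a tissue, every member called lower, Cxcl10, Isg15, Irf7, Ifit1, Mx1 and Gbp2, and for interactions the 3 members with the smallest p-values. Of further interferon-stimulated genes, the 3 largest called rises and all called falls are named. Rsad2, and in ganglia Ifi204, Stat2 and Cd274, were added after their values were seen. The labels do not say that libraries came from separate animals, so p-values measure the spread between these samples, which may be technical. No library was a copy of a replicate, as the smallest chi-square over its degrees of freedom between replicates was 5.29. A floor of 3 counts covers counting error only.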

Additional observations from a re-analysis of the deposited data

Results flagged for a closer look

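The responses of several members differed between tissues by the interaction test of edgeR, and the 3 members with the smallest p-values in each contrast are given as differences in log2 fold change, with each tissue's own log2 fold change from its separate fit beside them. Between ankle and ganglia the differences were 1.56 for Stat2 (1.41 in ankles and -0.18 in ganglia), 2.75 for Cd274 (2.96 and 0.18) and 3.77 for Oasl1 (4.29 and 0.50). Between ankle and cord they were 3.62 for Gbp5 (3.72 in ankles and -0.03 in cords), 2.77 for Cd274 (2.96 and 0.06) and 1.82 for Parp14 (1.91 and -0.04). Between ganglia and cord they were -0.64 for Stat2 (-0.18 in ganglia and 0.35 in cords), 1.28 for Gbp5 (1.36 and -0.03) and 1.38 for Gbp3 (0.91 and -0.57). The 3 contrasts share libraries. For Stat2, every MSU ganglion lay below every PBS ganglion, a difference that did not pass within ganglia (adjusted p = 0.0837), while every MSU cord lay above every PBS cord.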

How the results depend on the processing

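No called member changed the sign of its log2 fold change under any alternative run. Apart from the rule on a log2 fold change of at least 1, the calls held under the 14 alternatives run within a tissue for 38 of 47 members in the ankle, 18 of 31 in ganglia and 3 of 12 in the cord. In ganglia, 31 members were called higher, 20 in a fit of all 18 libraries, 15 when log2 fold changes also had to reach 1, and 23 (without DRG MSU 2 or MSU 3) to 38 (without DRG MSU 1) when 1 library was left out. The count called lower was 0, or 1 in the fit of all 18 libraries (Stat2), and 0 to 1 when 1 library was left out (Cmpk2 without DRG PBS 3). In the cord 9 were called higher, 5 when they also had to reach 1 on the log2 scale, and 4 (without cord PBS 1) to 8 when 1 library was left out. The 3 called lower became 0 in the fit of all 18 libraries, 1 with limma-voom, 1 when the fall also had to reach 1 on the log2 scale, and 0 to 2 when 1 library was left out. In the ankle the count of 47 higher was 46 without a filter and 43 to 47 when 1 library was left out. For ankle minus ganglia 38 members were greater (33 to 43 when 1 library was left out) and 0 smaller, or 1 with DESeq2 and 0 to 1 when 1 library was left out. For ganglia minus cord 3 were greater, 7 with DESeq2 and 1 to 6 when 1 library was left out, and the 1 smaller became 0 when the difference also had to reach 1. The cause of these changes was not tested, apart from the fewer samples or stricter rule that an alternative has by construction. Upper quartile scaling moved the median log2 fold change of all ankle genes to -0.118, the fit of all 18 libraries to -0.133 and no filter to -0.106, against -0.02.

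Replicate numbers in the titles are shared by the groups, and the labels do not say whether they pair the samples. Deviations from the group mean were correlated between the MSU and PBS libraries of the same number. The correlations were 0.289, 0.192 and -0.135 in ankles, 0.113, 0.115 and -0.02 in ganglia, and 0.25, 0.0967 and -0.153 in cords. In each tissue they were positive for replicates 1 and 2 and negative for replicate 3. With the replicate number as a block, 38 members were called higher in the ankle (without Cxcl9, Irf7, the 4 IFIT genes, Oas1g, Oasl2 and Rsad2, adjusted p = 0.0504 to 0.126), 29 in ganglia and 8 in the cord, with 1 called lower in the cord. For ankle minus ganglia the title block gave 1 smaller, and a block on the numbers in the sample descriptions gave 7 greater for ganglia minus cord.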

Other observations

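A wider list of 73 further interferon-stimulated genes, not among the 47 members, was also read. Like the members, it was chosen with earlier results of these data known, so it is not independent of them. In the ankle 62 of 72 tested rose and 0 fell, with a median log2 fold change of 1.61, and 0 were lower at an unadjusted p under 0.05 in edgeR. Of all tested ankle genes, 21.6% were called higher and 21.7% lower. In ganglia 29 of 69 rose and 3 fell (34 and 4 without DRG MSU 1), when 16.7% of all tested genes were called higher and 18.7% lower. In the cord 10 of 65 rose and 3 fell, when 5.6% were called higher and 4.07% lower. The largest rises in the ankle were Slfn4 (a Schlafen gene of mouse leukocytes, 6.18 ± 0.58, adjusted p = 0.000712), Ifit1bl2 (4.18 ± 0.66, adjusted p = 0.00246) and Ccl5, a chemokine that attracts T cells and monocytes (3.86 ± 0.31, adjusted p = 0.000138). In ganglia they were Ifi207 (3.20 ± 0.29, adjusted p = 0.000208), Ms4a4c (3.08 ± 0.26, adjusted p = 3.71e-05) and Ifitm2, which blocks virus entry (2.93 ± 0.27, adjusted p = 8.39e-05). In the cord they were Ms4a4c (4.06 ± 0.71, adjusted p = 0.00489, a fold that rests on 8 PBS counts), Slfn1 (2.71 ± 0.51, adjusted p = 0.00464) and Ifitm2 (2.28 ± 0.29, adjusted p = 0.000243). Ifi207, Ifitm1, Ifitm2, Ifitm3, Nlrc5, Helz2, Slfn1 and Ms4a4c rose in all 3 tissues.

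Of this list, 3 of 69 tested genes fell in ganglia and 3 of 65 in the cord, against 18.7 and 4.07% of all tested genes. Tnfsf10, which encodes the death ligand TRAIL, was at 1.33, 0.913 and 0.839 CPM in MSU cords, against 6.92, 6.08 and 4.34 CPM in PBS cords (log2 fold change -2.50, SE 0.27, adjusted p = 6.64e-05). In ganglia it was at 3.05, 2.08 and 2.27 CPM in MSU ganglia, against 4.77, 4.16 and 4.02 CPM in PBS ganglia (log2 fold change -0.83, SE 0.21, adjusted p = 0.0119). The groups did not overlap in either tissue. Gbp4 was at 2.17, 1.83 and 1.97 CPM in MSU cords, against 7.93, 6.88 and 5.16 CPM in PBS cords (log2 fold change -1.75, SE 0.22, adjusted p = 0.000215) and fell in ganglia too (-0.77, adjusted p = 0.028). Gbp9 fell in cords (-1.29, adjusted p = 0.00061) and Znfx1 fell in ganglia (-0.64, adjusted p = 0.000787) but rose in cords, at 118, 156 and 140.5 CPM in MSU cords, against 70.5, 76.1 and 73.4 CPM in PBS cords (log2 fold change 0.91, SE 0.10, adjusted p = 4.95e-05).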
